A study of Mus musculus with 8 samples.

Results

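The genes described here encode heat shock proteins and their partner chaperones: Hsp90, Hsp70 with Hsp110, Hsp60 with Hsp10, the small heat shock proteins, the J-domain proteins Dnaja, Dnajb and Dnajc, the subunits of the cytosolic chaperonin CCT, and the BAG proteins. They were chosen by gene symbol, among genes with a protein-coding transcript, which gave 88 members of the 55335 genes in the deposited tables. The choice was made with earlier results of these data known. Of these, 65 were measured, meaning that they averaged 5 CPM or more (counts per 1000000 of the library size after TMM scaling). The RNA was that of a CD8 T cell sort of B16 melanoma tumours, taken 14 days after intravenous injection of the tumour cells into wild-type C57BL/6 mice or CD36 KO mice on the same background. The sample titles gave 4 sequencing lanes of 1 library per genotype, and the libraries are called WT and CD36_KO here, so lanes measure technical spread and no difference between the genotypes has a replicate check. The sources used here do not say how the knockout allele was made, how many animals a library holds or how the sort was gated.

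Chaperones bind unfolded or partly folded proteins and release them in cycles of ATP binding and hydrolysis. Hsp70 acts with J-domain proteins, which deliver substrates and stimulate its ATPase, and with nucleotide exchange factors such as Hsp110 and BAG proteins, while Hsp90 and the ring-shaped chaperonins take up later folding steps. Some members are made at all times, and others are induced by the transcription factor HSF1, which binds repeated GAA units called heat shock elements when unfolded proteins accumulate. Activated T cells raise their protein synthesis, and tissue digestion and sorting are also known to induce heat shock genes.

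The WT library held 10071960 estimated counts and the CD36_KO library 10363391. The targeted gene Cd36 had 287 to 307 counts per WT lane and 77 to 107 per CD36_KO lane. Markers of other cell types were abundant beside those of the labelled type. CD8 T cell markers summed to 352 to 369 CPM per lane in WT and 1137 to 1181 CPM in CD36_KO, beside 5876 to 6133 CPM and 1413 to 1477 CPM for melanoma markers and 6563 to 6638 CPM and 4451 to 4482 CPM for macrophage markers. In such mixed libraries, fewer cells of a type and less RNA per cell cannot be told apart. Intervals given below are 95% counting intervals, which treat reads as independent molecules and do not cover variation between animals.

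The sequences of 3 promoters come first, because Hspa1a, Hspa1b and Hspb1, the measured members with the lowest ratios, each hold a pair of heat shock units close to the start. Each run gives the 250 bases before the annotated start on the gene's own strand, from RefSeq on GRCm38.p6, with pairs of heat shock units (GAANNTTC) in capitals. The regions are chr17:34972157-34972406 on the minus strand for Hspa1a, chr17:34959239-34959488 on the minus strand for Hspa1b and chr5:135887669-135887918 on the plus strand for Hspb1.
Hspa1a: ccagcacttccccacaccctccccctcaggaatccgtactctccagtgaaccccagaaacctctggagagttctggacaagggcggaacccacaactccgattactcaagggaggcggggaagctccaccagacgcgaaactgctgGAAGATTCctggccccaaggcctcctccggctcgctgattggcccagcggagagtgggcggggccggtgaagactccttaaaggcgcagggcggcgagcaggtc
Hspa1b: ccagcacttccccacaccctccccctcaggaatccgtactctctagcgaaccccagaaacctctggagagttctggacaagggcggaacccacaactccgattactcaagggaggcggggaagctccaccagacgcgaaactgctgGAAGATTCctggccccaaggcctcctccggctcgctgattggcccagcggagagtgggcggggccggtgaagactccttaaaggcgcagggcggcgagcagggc
Hspb1: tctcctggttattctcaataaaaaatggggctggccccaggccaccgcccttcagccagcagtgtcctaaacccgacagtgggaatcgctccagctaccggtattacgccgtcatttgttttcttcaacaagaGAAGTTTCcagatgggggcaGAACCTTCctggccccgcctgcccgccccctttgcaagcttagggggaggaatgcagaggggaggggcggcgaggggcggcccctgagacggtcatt
The capitals begin 104 bases before the start in both Hspa1a and Hspa1b, and 117 and 97 bases before it in Hspb1. Over a window of 300 bases that also takes in 50 bases after the start, the Hspa1a and Hspa1b promoters were identical at 296 positions. The substitutions were C44T, T47C, T249G and C276T, with positions counted from the 5′ end of the window and the Hspa1a base first, and none of them lies in the capitals. A match is a description of the letters, not a shown binding site or a cause.

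Most chaperone genes had a lower scaled count in CD36_KO, and a few differed by much more than the rest. The log2 ratio, CD36_KO over WT, was below 0 for 52 of the 65 measured members, where 58.9% of all measured genes had a ratio below 0, and this direction does not hold in TPM, where 24 ratios were below 0 and 41 above. By size, 7 members were at least 2-fold lower in CD36_KO with an interval excluding no difference, 0 were at least 2-fold higher and 58 lay between. Over all 12177 measured genes, 10.8% were lower and 6.5% higher by the same rule, so the share of members that were lower is near the background. The 7 were the inducible Hsp70 genes Hspa1a and Hspa1b, the small heat shock gene Hspb1, the mitochondrial chaperonin gene Hspd1, the BAG gene Bag3, the CCT subunit gene Cct7 and the J-domain gene Dnajc22. The calls of Hspa1a, Hspa1b and Hspb1 held under every alternative setting that was run. Those of Bag3, Cct7 and Dnajc22 lie near the threshold or on few counts, and all 3 ended when WT lane 3 was left out, which left 4 lower members. On the log2(TPM + 1) scale they ended too, with that of Hspd1. The median log2 ratio of the measured members was -0.39, against -0.13 over all measured genes. All 4 CD36_KO lanes lay below all 4 WT lanes for 33 of the 65 members, where 33.3% of all measured genes did so. They lay above them for 4 members, where 19.6% did so. Every member has a protein-coding transcript. Of the 11032 measured genes with one, 61.5% had a ratio below 0, with a median of -0.17. Their CD36_KO lanes were all lower for 35% and all higher for 18.7%.

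The general direction depends on the scale. TPM (transcripts per 1000000) divides by transcript length and leaves out the TMM scaling. It moves the median over all genes by 0.50 on the log2 scale relative to TMM-scaled CPM. Total counts, which leave out the TMM scaling but do not divide by length, move it by 0.20. On the log2(TPM + 1) scale the members' median ratio was 0.075 and that of all genes 0.37, so the sign of the members' median flips while its place below the other genes does not. Minus the all-gene median, the members' median was -0.26 on the TMM scale and -0.29 on the TPM scale. By this measure 41 of the 65 members lay below the median of all genes on both scales, where 44.2% of measured genes did so. Another 16 lay above it on both, where 44.2% also did so. Of measured genes with a protein-coding transcript, 46% lay below that median on both scales and 42.3% above it on both. On either scale alone, 50% of all measured genes lie below the median by definition. The libraries also differed in fragment length: the mean implied by the effective lengths was 160 to 161 bases per WT lane and 194 to 195 bases per CD36_KO lane. Its part in the result was not tested.

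**Figure D1:**
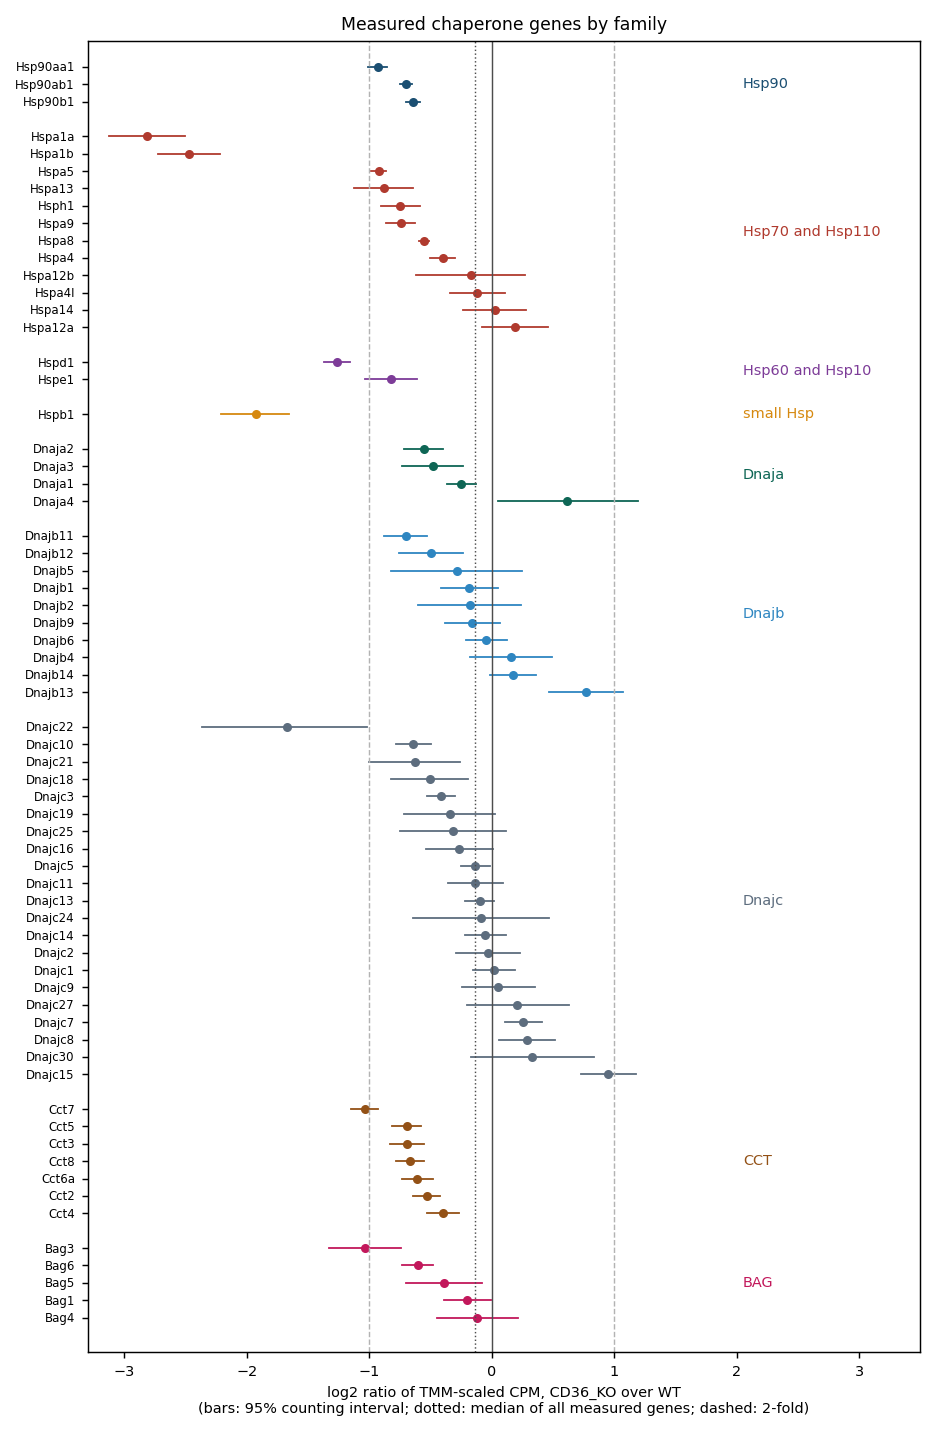
Log2 ratio of TMM-scaled CPM, CD36_KO over WT, for the 65 measured chaperone genes, grouped by family, with 95% counting intervals as bars. The dotted line is the median of all measured genes (-0.13) and the dashed lines mark 2-fold; Hspa1a, Hspa1b and Hspb1 lie farthest to the left, and no member passes the 2-fold line on the right.

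**Figure D2:**
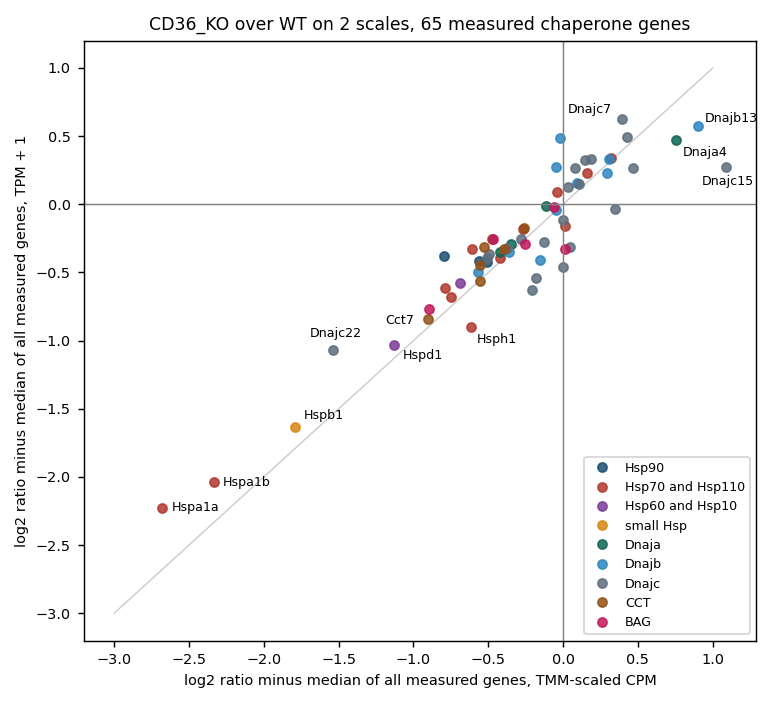
Log2 ratio of each measured chaperone gene minus the median over all measured genes, with TMM-scaled CPM on the x axis and TPM + 1 on the y axis, coloured by family. Points in the lower left quadrant (41 members) were below the median gene on both scales, and those in the upper right (16 members) above it on both.

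The chaperone genes took 0.683% of counts in WT (exact binomial interval 0.678 to 0.688) and 0.520% in CD36_KO (0.516 to 0.525). In TPM their sum was 1796 ± 60.3 and 1832 ± 33.0 (SD over 4 lanes of 1 library), so that the lower share of counts was not seen per transcript. A small group carried much of the total. The 5 genes Hspa8, Hsp90ab1, Hspa5, Hsp90b1 and Hsp90aa1 made up 48.8% of the members' counts in WT and 45.1% in CD36_KO.

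The inducible Hsp70 genes Hspa1a and Hspa1b showed the lowest ratios of the 65 measured members. Both encode the stress-induced cytosolic Hsp70, lie 9951 bases apart on chromosome 17 (GRCm38; Hspa1b from 34956436 to 34959238 and Hspa1a from 34969190 to 34972156), and consist of 1 exon each. Their transcripts are 99.1% identical over 2200 aligned bases, so the division of reads between them is uncertain and their sum is the safer value. Summed, they stood at 152, 151, 139 and 138 CPM in the WT lanes and 23.8, 25.1, 23.3 and 22.9 CPM in the CD36_KO lanes. No CD36_KO lane came near a WT lane. The summed log2 ratio was -2.61 (-2.80 to -2.42), which left 16.4% of the WT level (14.3 to 18.7). Taken singly, the ratio was -2.81 for Hspa1a and -2.47 for Hspa1b. In TPM, Hspa1a stood at 10.7 ± 0.381 and 2.24 ± 0.476 and Hspa1b at 14.0 ± 1.14 and 3.70 ± 0.461 in WT and CD36_KO. The third gene of this cluster, Hspa1l, lies 546 bases from Hspa1a on the opposite strand and had 2 and 9 counts, below the minimum.

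The constitutive Hsp70 gene Hspa8, which encodes the abundant cytosolic Hsc70, differed far less. It stood at 1129, 1140.5, 1109 and 1095 CPM in the WT lanes and 782, 746, 758.5 and 759 CPM in the CD36_KO lanes, a log2 ratio of -0.55 (-0.60 to -0.51). The lanes did not overlap by counts. In TPM they did, with 309 ± 13.0 in WT and 304 ± 15.7 in CD36_KO. The ratio of Hspa8 to the sum of Hspa1a and Hspa1b in TPM was 12.5 in WT (lanes 11.8 to 13.5) and 51.2 in CD36_KO (lanes 48.1 to 53.7), a comparison within each library that a common scaling leaves in place.

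Compartment-specific Hsp70 genes lay between Hspa8 and the inducible pair with TMM scaling, an order that Hspa9 does not keep in TPM. Hspa5, which encodes the endoplasmic reticulum chaperone BiP, had a log2 ratio of -0.92 (-0.98 to -0.86), from 642, 632.5, 646 and 672 CPM to 337, 339, 354 and 336 CPM. Hspa9, the mitochondrial Hsp70, had one of -0.74 (-0.86 to -0.62). In TPM their ratios were -0.25 and 0.04, or -0.61 and -0.33 relative to all genes, so that both stayed below the median gene on either scale. The nucleotide exchange factor Hsph1, an Hsp110, had 791 and 556 counts and a log2 ratio of -0.75, with 19.0 ± 1.77 TPM in WT and 12.8 ± 2.71 TPM in CD36_KO. Hspa12a, a distant Hsp70 relative, had the highest ratio of the family at 0.19 (-0.08 to 0.46), and its lanes overlapped. Over the 12 measured genes of the Hsp70 and Hsp110 family the median was -0.65, or -0.51 relative to all genes with TMM and -0.36 with TPM. Of these genes, 2 were at least 2-fold lower and 0 higher, against 10.8% and 6.5% of all measured genes.

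Small heat shock proteins bind unfolding proteins without ATP and hold them for the Hsp70 system. Of 8 members, only Hspb1, which encodes Hsp27 (chromosome 5, 135887919 to 135889563), was measured. It stood at 45.1, 45.5, 52.8 and 51.3 CPM in the WT lanes and 11.7, 13.7, 9.93 and 15.9 CPM in the CD36_KO lanes, which do not overlap. The log2 ratio was -1.93 (-2.21 to -1.65). In TPM the WT lanes ran from 27.1 to 33.1 and the CD36_KO lanes from 9.45 to 15.0, again apart, with a ratio of -1.26 on the log2(TPM + 1) scale. Cryab, the small heat shock protein alpha B crystallin that the symbol rule leaves out, had 482 and 189 counts (-1.59).

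**Figure D3:**
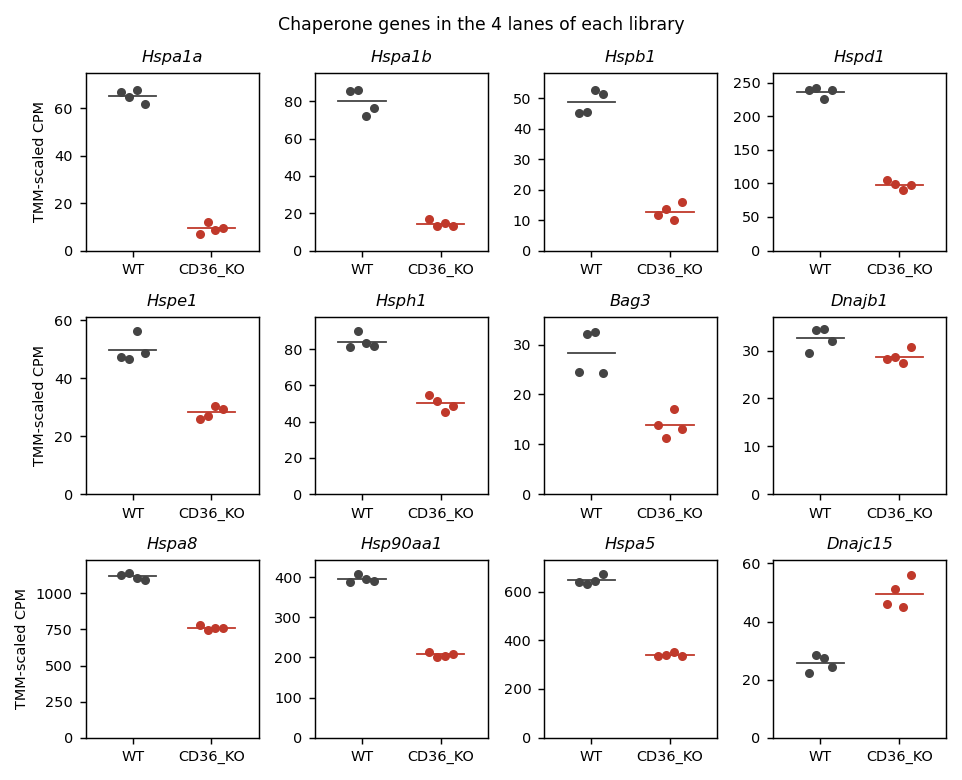
TMM-scaled CPM of 12 chaperone genes in each of the 4 lanes of the WT (grey) and CD36_KO (red) libraries, with a line at the mean of the lanes and axes that start at 0. Hspa1a, Hspa1b and Hspb1 show the widest gaps, Dnajb1 overlaps between the libraries, and Dnajc15 is higher in every CD36_KO lane.

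The mitochondrial chaperonin genes were below the WT level, and the gene of the ring subunit passed the 2-fold rule. Hspd1, which encodes Hsp60, stood at 239, 242, 225 and 239 CPM in the WT lanes and 106, 99.9, 90.0 and 98.1 CPM in the CD36_KO lanes, with a log2 ratio of -1.26 (-1.37 to -1.16). Hspe1, which encodes the lid Hsp10, stood at 47.2, 46.6, 56.2 and 48.8 CPM and 25.9, 26.9, 30.4 and 29.4 CPM, with a log2 ratio of -0.82 (-1.03 to -0.61). The lanes of both genes were separate by counts. In TPM, Hspd1 went from 49.8 ± 1.81 to 31.0 ± 2.13 with separate lanes, and Hspe1 from 37.2 ± 3.82 to 31.9 ± 2.69 with overlapping lanes. The ratio of Hspd1 to Hspe1 in TPM was 1.34 in WT (lanes 1.12 to 1.47) and 0.972 in CD36_KO (lanes 0.809 to 1.14). The lane ranges of this ratio overlap slightly. The genes face away from each other on chromosome 1 with overlapping 5′ ends (Hspd1 from 55077835 to 55088243, Hspe1 from 55088132 to 55091307), and the sources used here do not state whether counting used strand.

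A heat shock element of 3 units (the pair GAANNTTC with a further GAA after NN, searched on both strands in the 300-base promoter window) is rare, and the shared promoter of Hspd1 and Hspe1 holds overlapping copies. The element stood in 4 of the 71 member genes with a RefSeq promoter, Dnajb6, Hspd1, Hspe1 and Hsph1, which is 5.63%, against 0.662% of 27025 genes. The sites are shown with their units in capitals, on the strand of the named gene. Their positions are chr1:55088051-55088079 for Hspe1, chr5:29735844-29735872 for Dnajb6 and chr5:149636280-149636308 (minus strand) for Hsph1. The Hsph1 site lies after the RefSeq start, while those of Hspe1 and Dnajb6 lie before it.
Hspe1: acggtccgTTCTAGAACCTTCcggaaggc
Dnajb6: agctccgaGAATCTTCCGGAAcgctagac
Hsph1: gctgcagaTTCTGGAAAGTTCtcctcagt
These 4 genes had a median log2 ratio of -0.79 and ranged from -1.26 for Hspd1 to -0.04 for Dnajb6, so the element was present in genes with very different ratios. Pairs of units (GAANNTTC or TTCNNGAA, which the 3-unit element contains) were found in 21 of 71 members, or 29.6%, against 17.0% of all genes. Among measured members with a RefSeq promoter, 5 of the 16 with a pair were at least 2-fold lower (median -0.67), and 1 of the 36 without (median -0.23). The lower member Dnajc22 and the abundant Hspa8, Hsp90aa1 and Hsp90ab1 had no RefSeq promoter and are in neither group. Over all measured genes with a promoter, 10.4% of 1283 with a pair and 9.68% of 7708 without were lower. Hspa1a and Hspa1b are near-identical, and counting them once leaves 4 lower of 15. Hspd1 and Hspe1 likewise share their promoter. These counts are descriptions of a list in which several genes were already known to be low.

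The Hsp90 genes were below the WT level by scaled counts and differed by less than the SD of the lanes in TPM. Hsp90 folds and holds kinases and steroid receptors, among others. Hsp90aa1, the inducible cytosolic form, had 388, 407, 396 and 391 CPM in the WT lanes and 214, 202, 205 and 210 CPM in the CD36_KO lanes, a log2 ratio of -0.93 (-1.01 to -0.86). Hsp90ab1, the constitutive cytosolic form, had a ratio of -0.70 (-0.75 to -0.65), and Hsp90b1, the endoplasmic reticulum form GRP94, one of -0.64 (-0.70 to -0.58). For all 3 the lanes were separate by counts. In TPM, Hsp90aa1 stood at 100.5 ± 18.4 and 99.5 ± 13.2, Hsp90ab1 at 168 ± 6.90 and 162 ± 9.95, and Hsp90b1 at 109 ± 5.52 and 105 ± 7.36. Against all genes, the family median stood at -0.56 (TMM) and -0.42 (TPM). The ratio of Hsp90ab1 to Hsp90aa1 in TPM was 1.67 and 1.63 in WT and CD36_KO, with lanes that overlap. Of the Hsp90aa1 isoforms, Hsp90aa1-201 went from 2743 to 1794 counts and Hsp90aa1-202 from 790 to 302, estimates that rest on how reads were divided between overlapping transcripts.

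Some members that act in the endoplasmic reticulum share a promoter element. The ER stress element, searched on both strands as CCAAT and CCACG with 9 bases between them, stood in 3 of 71 members, Hspa5, Hsp90b1 and Dnajc3, or 4.23%, against 0.137% of all genes. It is shown in capitals at chr2:34772020-34772048 for Hspa5, chr10:86705633-86705661 (minus strand) for Hsp90b1 and chr14:118937822-118937850 for Dnajc3, which encodes an inhibitor of eIF2 alpha kinases and a BiP partner.
Hspa5: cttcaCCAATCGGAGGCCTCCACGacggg
Hsp90b1: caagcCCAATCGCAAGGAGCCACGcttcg
Dnajc3: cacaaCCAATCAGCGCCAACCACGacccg
Their log2 ratios were -0.92, -0.64 and -0.42. Among folding and unfolded protein response genes of the endoplasmic reticulum outside the symbol rule, 8 of 18 measured genes were at least 2-fold lower and 0 higher. By the same rule, 10.8% of all measured genes were lower and 6.5% higher. This list was written with earlier results of these data known, so its counts are a description only. The median of this list was -0.86 (-0.72 relative to all genes with TMM and -0.69 with TPM). The list also holds the transcription factor genes Xbp1 (-0.61), Atf4 (-0.71) and Ddit3 (-0.31), none of which was at least 2-fold lower. The oxidase gene Ero1l had a ratio of -2.50, the disulfide isomerase gene P4hb one of -1.39 and Creld2 one of -1.16.

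The cytosolic chaperonin CCT folds actin and tubulin in a ring that holds its subunits in equal number. All 7 measured CCT genes of the rule had lower CPM in every CD36_KO lane than in any WT lane, as did 33.3% of all measured genes. Cct7 was the lowest, with 197, 189, 206 and 202 CPM in the WT lanes and 95.1, 85.8, 105 and 101 CPM in the CD36_KO lanes and a log2 ratio of -1.04 (-1.15 to -0.93). The others were close together, at -0.69 for Cct3 and Cct5, -0.66 for Cct8, -0.61 for Cct6a, -0.53 for Cct2 and -0.40 for Cct4, and Tcp1, the CCT1 subunit that the rule leaves out, stood at -0.46. In TPM the family median was 0.04, or -0.33 relative to all genes (-0.53 with TMM). Cct7 differed in TPM, with lanes from 49.5 to 54.2 in WT and 31.8 to 40.3 in CD36_KO, while the lanes of Cct2, Cct3, Cct4, Cct5, Cct6a and Cct8 overlapped. Part of the Cct7 difference lay in Cct7-202, a transcript annotated for nonsense-mediated decay, at 358 and 57 counts, while the coding Cct7-201 went from 1028 to 621 (-0.97). Subunit levels within a library were spread by a ratio of 2.03 in WT and 2.53 in CD36_KO, from Cct3 to Cct6a, of whose counts 54.2% and 58.7% fell on non-coding isoforms. Cct6b and Cct8l1, the other members of this family, had at most 1 count per library.

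**Figure D4:**
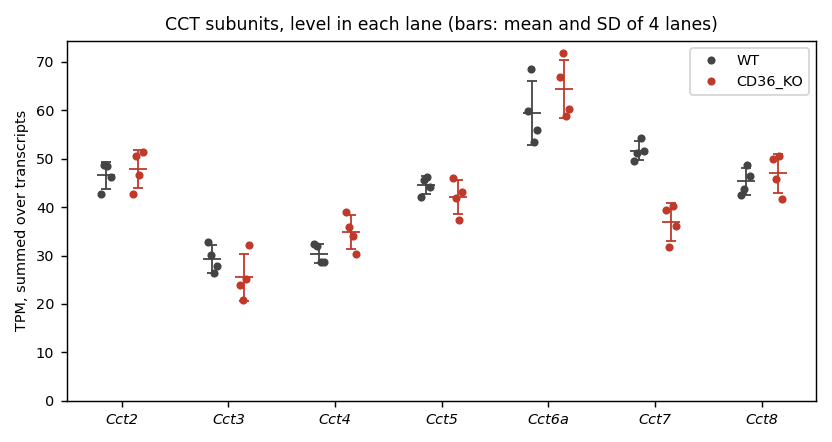
TPM of the 7 measured CCT subunit genes of the symbol rule in each of the 4 lanes of the WT (grey) and CD36_KO (red) libraries, with the mean and SD of the lanes. The lanes of Cct7 are separate, at 49.5 to 54.2 and 31.8 to 40.3 TPM, and those of the other subunits overlap.

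The J-domain genes, which set where Hsp70 acts, had ratios on both sides of 0, as did the Hsp70 and Hsp110 family. With TMM scaling the Dnajb and Dnajc medians were nearer to 0 than those of the other families. The Dnaja median was close to that of the BAG genes (-0.39). Medians were -0.37 for the 4 measured Dnaja genes, -0.17 for 10 Dnajb genes and -0.10 for 21 Dnajc genes, which relative to all genes was -0.23, -0.03 and 0.03 with TMM and -0.15, 0.19 and -0.11 with TPM. Dnajb1, the heat-inducible Hsp40 that works with Hspa1a, stood at 29.5, 34.3, 34.6 and 32.1 CPM in the WT lanes and 28.2, 28.7, 27.4 and 30.9 CPM in the CD36_KO lanes. These lanes overlapped, and its ratio of -0.18 (-0.41 to 0.05) does not exclude no difference. Its isoform estimates moved apart, from 271 to 202 counts for Dnajb1-201 and from 36 to 117 for Dnajb1-202. Dnaja1, the Dnaja gene with the highest TPM, had a ratio of -0.25, and 33.0% of its counts in WT and 54.8% in CD36_KO fell on non-coding isoforms. Dnajb6, which suppresses protein aggregation, stood at -0.04, Dnajb11, a BiP partner, at -0.70, and Dnaja2 at -0.55.

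A few J-domain genes stood out at the ends. Dnajc22 had 73 and 27 counts, 9.28, 7.72, 8.45 and 5.56 CPM in the WT lanes and 2.50, 2.91, 1.43 and 2.91 CPM in the CD36_KO lanes, and a ratio of -1.67 (-2.37 to -1.02). Its lanes did not overlap, but its counts are few. Dnajc15, a J-domain protein of the inner mitochondrial membrane, had the highest ratio of the measured members with TMM scaling, at 22.4, 28.3, 27.5 and 24.4 CPM in the WT lanes and 46.1, 51.2, 45.1 and 56.0 CPM in the CD36_KO lanes. Its lanes were separate, with a ratio of 0.95 (0.73 to 1.18), short of 2-fold. On the log2(TPM + 1) scale its ratio was 0.64, below those of Dnajc7 (0.99) and Dnajb13 (0.94), among others. The coding transcript Dnajc15-202 went from 155 to 468 counts, and Dnajc15-201, annotated for nonsense-mediated decay, from 54 to 46. Dnajb13, a gene of sperm and cilia axonemes, had 140 and 281 counts (0.77) and overlaps the abundant gene Ucp2 on the opposite strand (3992 and 4595 counts). Without a stated strand setting, it is not known how far reads of Ucp2 entered the counts of Dnajb13. No marker of testis germ cells was measured. Dnajc7 had a ratio of 0.26 by counts and 0.99 on the TPM scale, where 46.9% and 62.2% of its counts in WT and CD36_KO lay on non-coding isoforms, and Dnaja4 had 42 and 76 counts (0.62, interval 0.06 to 1.20) with overlapping lanes.

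BAG proteins release Hsp70 from its substrates, and BAG3 also carries clients to selective autophagy. Bag3 stood at 24.5, 32.2, 32.5 and 24.4 CPM in the WT lanes and 13.9, 11.3, 17.2 and 13.1 CPM in the CD36_KO lanes, with a log2 ratio of -1.03 (-1.33 to -0.74). The lanes were separate in CPM but not in TPM, where they ran from 4.54 to 6.31 and 3.13 to 4.89. Bag6, which guards newly made membrane proteins, had a ratio of -0.60 (-0.73 to -0.48) and Bag4 one of -0.12. Of the 5 measured BAG genes 1 was at least 2-fold lower and 0 higher, against 10.8% and 6.5% of all measured genes.

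Unmeasured members numbered 23, with 0 to 55 counts in WT and 0 to 57 in CD36_KO. Dnajc5g and Hspb3 had 0 counts in both, which allows up to 0.319 CPM in WT and 0.270 CPM in CD36_KO. Pairs of low counts such as Bag2 (49 and 14) and Hspb8 (47 and 24) lay below the minimum and enter no count of measured members above. They are part of the members' summed counts and TPM, and of the members with a RefSeq promoter.

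Genes that work with the chaperones were described by lists that were written with earlier results of these data known. The counts below stand beside 10.8% of all measured genes that were at least 2-fold lower and 6.5% that were higher. HSF1 itself, the main heat shock transcription factor, had 247 and 304 counts for Hsf1 and a ratio of 0.06 (-0.19 to 0.31). The heat shock factor list had 4 measured genes, among them Hsbp1, which encodes a factor-binding protein and not a factor. Of these 1 was lower, Hsf4, at 91 and 36 counts (-1.58). Of 14 other targets of HSF1 3 were lower and 0 higher, with a median of -0.50: the collagen chaperone gene Serpinh1 (-1.96), Cryab (-1.59) and the immunophilin gene Fkbp4 (-1.26). Of 20 Hsp90 cochaperone genes 2 were lower, Fkbp5 (-1.53) and Fkbp4, and the median was -0.55. Of 11 measured Hsp70 cochaperone genes 1 was lower, Hyou1 (-1.03), and the median was -0.49. Mitochondrial protein quality genes had 1 of 14 lower, the protease gene Lonp1 (-1.22), and prefoldin and CCT partner genes 0 of 13. The proteotoxic stress list had 1 of 12 lower, the autophagy receptor gene Sqstm1 (-1.14). No gene of these lists was at least 2-fold higher. All of these medians lie below the median of all genes (-0.13) on the TMM scale, and below it (0.37) on the TPM scale too.

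Immediate early genes, which tissue dissociation is known to induce, had 1 of 13 at least 2-fold lower, Ier3 (-1.81), and 0 higher. The shares over all measured genes were 10.8% and 6.5%. Their median was -0.10, or 0.03 relative to all genes with TMM and 0.08 with TPM. Single genes ran both ways with separate lanes, such as Nfkbia (-0.91) and Btg2 (0.78), both short of 2-fold. Fos stood at 1154 and 1527 counts (0.17). Beside the lower chaperones, all 14 melanoma markers stood at least 2-fold lower (median -2.26), and 8 of 10 measured fibroblast markers did so (median -1.32). Of the other fibroblast markers, Postn was higher, at 119 and 570 counts (2.02), and Pdgfrb lay between (0.75). All 12 CD8 T cell markers were higher, with a median of 1.77. Hepatocyte markers were also higher, 11 of 11 measured (median 2.85), with summed levels of 116 to 152 CPM per WT lane and 938 to 945 CPM per CD36_KO lane. Of 8 measured B cell markers 7 were higher (median 2.50), summing to 75.8 to 84.2 CPM and 249 to 264 CPM. Macrophage markers had 5 of 15 lower and 0 higher (median -0.42), and endothelial markers 0 of 9 measured lower and 1 higher (median 0.57). The part of these genes and cell types in the chaperone result was not tested. The libraries do not separate the cells in which the chaperone transcripts were made.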

How the data were processed

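The 8 RNA-seq samples are titled as 4 lanes of a single library for each genotype, and the lanes of a genotype label were added up. Per the file headers, each deposited table gives, per transcript, estimated counts, TPM and an effective length. No normalisation had been applied to the deposited estimated counts, and the authors' TPM are scaled for length and lane total. The submitters' processing notes name kallisto, DESeq2 and GRCm38.p6. The sources used here give no versions, annotation release or strand setting.

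Values of 142351 transcripts were added per gene and over lanes, then rounded. TMM factors (edgeR 4.0.16, R 4.3.3) over the whole table were 0.934 for WT and 1.071 for CD36_KO. Lanes held 2497048 to 2611740 counts. Each gene's value was its log2 ratio in TMM-scaled CPM, with an exact Clopper-Pearson 95% interval for counting error only. A gene was measured from a mean of 5 CPM, and called from 2-fold with an interval excluding no difference. No p-value is given, because each genotype is 1 library. Levels were compared between genes in TPM, and TPM ratios used log2(TPM + 1). The steps were tested on simulated data. Alternatives were total counts, DESeq2 1.42.0 size factors, TPM with 2 pseudocounts (1 and 0.1), minima of 0 and 20 CPM, a 1.5-fold threshold, protein-coding transcripts only, and leaving out each lane.

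Coordinates came from GENCODE M21 (GRCm38), where 99.1% of transcripts matched with equal length, and promoters from RefSeq (GRCm38.p6), which matched 71 members. Members and lists were chosen with earlier results of these data known. Named genes were, per family, the member with the highest TPM and those with the highest and lowest ratio, all called members, 13 well-known chaperones, all CCT subunits, and up to 3 measured genes per context list with the largest absolute ratio, and Hsf1 and Tcp1. Bag2, Hspb8, Hspb3, Dnajc5g, Hspa1l, Dnajc3, Xbp1, Atf4, Ddit3, Postn, Pdgfrb, Fos and Ucp2 were named outside this rule, after their values were seen.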

Additional observations from a re-analysis of the deposited data

Results flagged for a closer look

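Among 66 groups of 4 lanes (33 measured members named by the rule, in each library), 1 held a lane that stood apart by Dixon's test at the 95% level, which is 1.52% of groups, where chance flags about 1 in 20. It was WT lane 3 for Dnajb13, at 18.8 CPM, while the other WT lanes ran from 13.2 to 14.0 CPM. All CD36_KO lanes were above it, from 21.5 to 28.5 CPM.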

How the results depend on the processing

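The 7 lower members became 4 with total counts, 3 with log2(TPM + 1), 4 with log2(TPM + 0.1), 11 without a CPM minimum and 23 at 1.5-fold, where 23.2% of all genes were lower. They numbered 6 from 20 CPM, without Dnajc22, and 7 over protein-coding transcripts only, where Bag2 and Hspb8 took the place of Bag3 and Cct7. They numbered 7 with DESeq2 size factors and 4 to 7 when 1 lane was left out. Cct7 was no longer called without WT lane 1, 2, 3 or 4 or CD36_KO lane 2, Bag3 without WT lane 2 or 3 or CD36_KO lane 2 or 4, and Dnajc22 without WT lane 1 or 3. The count of 0 higher members became 1 with total counts (Dnajc15), 3 with log2(TPM + 0.1), 1 without a minimum, 3 at 1.5-fold and 2 over protein-coding transcripts only, and was 0 to 1 when a lane was left out. The median of -0.39 became -0.17 with total counts, 0.075 with log2(TPM + 1), 0.085 with log2(TPM + 0.1) and -0.50 from 20 CPM, and ran from -0.39 to -0.29 when a lane was left out. The share of counts was 1.17% and 0.857% over protein-coding transcripts only, and 0.180% and 0.183% in TPM, in the WT and CD36_KO libraries. It was 0.681% to 0.686% and 0.518% to 0.521% when a lane was left out. Shares of all genes called are given only for the main rule and for lower calls at 1.5-fold. The median over all measured genes also moved, from -0.13 to 0.063 with total counts and 0.37 with log2(TPM + 1). The other counts of called members therefore do not show whether the members' place among all genes changed. The cause of the changes between settings was not tested.

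No paired analysis was possible because each genotype is 1 library, and lane numbers do not pair animals. Depth limits members of few counts, such as Dnajc22 (73 and 27) and the 23 members that were not measured. Reads of near-identical genes, overlapping genes and isoforms rest on the division made by the authors' pseudoalignment.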
